A study of Mus musculus with 12 samples.

Results

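The mRNA of 10 genes of the blood-brain barrier was followed after traumatic brain injury (TBI) and after treatment of injured mice with zileuton, an inhibitor of the enzyme 5-lipoxygenase. The genes were taken by symbol and matched to Ensembl identifiers, and all 10 were found among the 35697 genes counted in the sham and TBI mice and among the 55637 counted in the TBI and zileuton mice. They are the tight junction genes Cldn5, Ocln and Tjp1, the endothelial adhesion genes Cdh5 and Pecam1, the transporter genes Slc2a1, Mfsd2a, Abcb1a and Slco1a4, and Plvap. All 10 passed the filter on low counts in both comparisons.

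The blood-brain barrier is built by the endothelial cells of brain capillaries, which seal the space between them with tight junctions, carry nutrients through membrane transporters and pump drugs and toxins back into the blood. They form few vesicles, so little passes through the cells themselves, and signals from pericytes, astrocytes and the Wnt pathway keep them in that state. Mechanical injury of the brain is known to open the barrier, with loss of junction contacts, more vesicle transport and growth of new vessels among the changes described.

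The mice were adult male C57BL/6J wild-type animals. In controlled cortical impact a piston strikes the exposed cortex, and sham mice had the same surgery without the strike. A batch labelled 2018 held 3 sham mice and 3 TBI mice, the latter at 7 days after injury. A batch labelled 2022 held 3 TBI mice at 7 days, for which the labels name no vehicle, and 3 TBI mice given zileuton in the abdominal cavity, dissolved in corn oil, at a daily dose of 10 mg/kg. One zileuton mouse is labelled 7 days, one 8 days and one 9 days, while the library names say 7 days throughout, and the columns of the 2022 tables could be tied to a group but not to a single mouse, so these mice are called A, B and C. Each library is labelled as the brain tissue of a numbered mouse, described for the injured mice as pericontusional, and holds all cell types. The labels do not say whether tissue of several animals was pooled, so a numbered mouse below means the library of that number. Nothing was compared across the batches.

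Total counts were 42929862 to 48684674 per library in 2018 and 27845562 to 35453257 in 2022. Low counts in 2018 were even in 62.3% to 64.4% of cases, so a count need not be 1 separate molecule. The injury labels held: Gfap, the intermediate filament of reactive astrocytes, had mean CPM (counts scaled by library size) of 188 in sham and 2484 in TBI mice. The male label was less clear in 2018, where all 6 libraries held both Y-linked Ddx3y (51.7 to 66.8 CPM) and Xist, the RNA of the inactive X chromosome (18.5 to 23.5 CPM), whereas Xist was 0.0343 to 0.197 CPM in 2022. As all 6 carried it, no comparison without them could be made, and why both RNAs were present was not tested. RNA of the choroid plexus, the secretory tissue of the ventricles, also set libraries apart. Its 12 listed genes summed to 1110 CPM in sham mouse 1, 23.6 and 61.2 CPM in sham mice 2 and 3, and 1205 to 1389 CPM in the TBI mice of 2018. In 2022 the sums were 15.4, 495.5 and 1098 CPM in TBI mice and 1528, 1331 and 17.6 CPM in zileuton mice. Results are therefore also given without the libraries low in these genes.

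Levels of different genes can be compared only per gene length, and FPKM, which divides the count by library total and gene length, served for this in 2018. In sham mice Slc2a1 was the highest of the 10 at 17.1 ± 2.2 FPKM (SD, n = 3), followed by Tjp1 at 13.0 ± 0.979, Mfsd2a at 10.5 ± 1.41 and Cldn5 at 7.14 ± 1.36, and the ranges of these neighbours were apart. Plvap, Slco1a4, Cdh5, Abcb1a and Pecam1 followed between 3.51 and 1.72 FPKM, each overlapping the next. Ocln was lowest, with 1.13 ± 0.0581 FPKM and no overlap with Pecam1. After TBI Cldn5 stood at 16.2 ± 5.13 FPKM and overlapped Tjp1 at 17.3 ± 0.903, while Mfsd2a stood below both at 7.09 ± 1.58. Among the 4 highest genes, Cldn5 and Mfsd2a had traded positions.

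The first comparison asked what 7 days of injury do to these genes. Most junction and adhesion genes and one efflux gene rose: Cldn5, Pecam1, Abcb1a, Cdh5, Ocln and Tjp1, by 2.18-fold down to 1.28-fold. Mfsd2a, the lipid transporter, fell to 0.652 of its sham level. Slc2a1, Slco1a4 and Plvap did not pass the test. That made 6 higher and 1 lower of 10 genes at an edgeR adjusted p under 0.05, against 16.8% higher and 11.2% lower, or 28.0% in all, of the 19536 genes tested. Groups did not overlap for 5 genes that were higher and 1 that was lower, against 24.6% higher and 19.8% lower, or 44.4% in all, of the genes tested. The median log2 fold change of the 10 was 0.47, beside 0.02 over all genes. The calls were not equally firm: Cldn5, Pecam1 and Cdh5 passed whichever mouse was left out. Leaving out sham mouse 2 or sham mouse 3 gave 4 calls, since Mfsd2a and Ocln then failed together with Abcb1a or Tjp1. Of all genes, 4334 of 20198 and 3848 of 20220 were called in these 2 fits. With sham mice 2 and 3, the libraries low in choroid plexus RNA, both left out, 0 of the 10 were called by edgeR, though all 7 kept their direction. That fit has a single sham mouse, assumed to vary like the TBI mice, and called 1542 of 21348 genes.

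**Figure D1:**
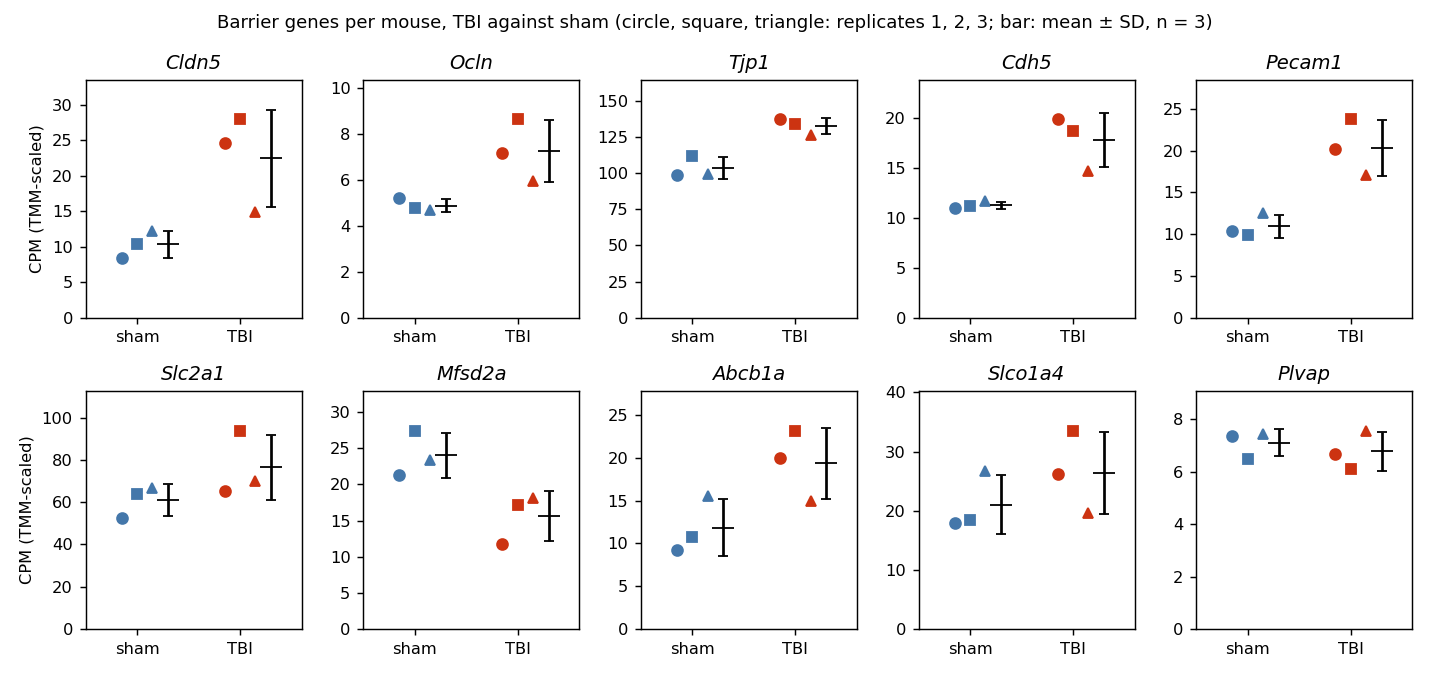
CPM of the 10 barrier genes in each mouse of 2018, with sham in blue and TBI in red, the mean and SD at the right of each group, and every axis starting at 0. Cldn5, Ocln, Tjp1, Cdh5 and Pecam1 have every TBI mouse above every sham mouse, Mfsd2a has every TBI mouse below, and the other 4 overlap.

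Cldn5 encodes claudin-5, the claudin that dominates the strands of brain endothelial tight junctions. It lies at chr16:18776847-18778262 on the plus strand (GRCm38, GENCODE M21). Its levels were 8.37, 10.3 and 12.2 CPM in sham mice 1, 2 and 3 and 24.65, 27.9 and 14.8 CPM in TBI mice 1, 2 and 3. The groups did not overlap, but TBI mouse 3 lay nearer to the highest sham mouse than to the other TBI mice. Injury raised it by a log2 fold change of 1.13 (SE 0.232, 95% interval 0.598 to 1.65, edgeR adjusted p = 0.00741). This was the largest rise among the 10. Without sham mice 2 and 3 it was 1.40 with an edgeR adjusted p of 0.0838.

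Cldn5 showed the largest rise and Mfsd2a the only fall, so the 250 bases before the RefSeq start of each are shown from GRCm38.p6, 5′ to 3′ in the sense of the gene. Cldn5 is at chr16:18776597-18776846 (plus strand) and Mfsd2a at chr4:122961189-122961438 (minus strand). Capitals mark GGAA, the core bound by ETS factors, and GGGCGG, the GC box, on either strand, so that TTCC and CCGCCC are marked as well.
Cldn5: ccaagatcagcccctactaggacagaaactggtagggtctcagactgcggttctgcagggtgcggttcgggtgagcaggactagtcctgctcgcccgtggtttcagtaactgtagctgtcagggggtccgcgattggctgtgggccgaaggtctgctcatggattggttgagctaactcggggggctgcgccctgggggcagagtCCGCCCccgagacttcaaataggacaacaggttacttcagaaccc
Mfsd2a: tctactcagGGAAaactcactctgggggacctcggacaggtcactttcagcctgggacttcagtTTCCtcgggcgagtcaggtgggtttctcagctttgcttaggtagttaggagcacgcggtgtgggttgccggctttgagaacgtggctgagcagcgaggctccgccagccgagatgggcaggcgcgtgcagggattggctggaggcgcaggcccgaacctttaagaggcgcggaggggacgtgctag
The Cldn5 stretch held no GGAA and 1 GC box, and the Mfsd2a stretch 2 GGAA and no GC box. Among 32851 RefSeq promoter stretches of this length 93.4% held GGAA and 32.7% held the GC box. The letters CTTTGAT of TCF and LEF factors (3.21% of all), ACAAAG of SOX factors (16.5%) and TGTTTAC of forkhead factors (3.17%) were in neither stretch on either strand. A match or its absence describes these letters alone. Promoters of 7 of the 10 genes were in the RefSeq table used.

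Ocln encodes occludin, a membrane protein of the tight junction, at chr13:100496507-100552718 on the minus strand. Sham mice had 5.19, 4.78 and 4.67 CPM and TBI mice 7.15, 8.64 and 5.97 CPM, with no overlap. The log2 fold change of 0.57 (SE 0.175) had an edgeR adjusted p of 0.0393. This call rested on few mice, as it was lost when any mouse other than TBI mouse 3 was left out (edgeR adjusted p 0.0756 to 0.132).

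Tjp1 encodes ZO-1, the scaffold that ties junction proteins to actin and that astrocytes and neurons express as well. It lies at chr7:65296165-65527781 on the minus strand. Its sham levels of 98.75, 112 and 99.9 CPM and TBI levels of 137.5, 134.6 and 126.7 CPM varied little within groups. The rise was small, with a log2 fold change of 0.36 (SE 0.0768, edgeR adjusted p = 0.00863), and every TBI mouse was above every sham mouse. Of the mice left out one at a time, only sham mouse 3 took the call away (edgeR adjusted p = 0.0501), and without sham mice 2 and 3 it was 0.105.

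Both endothelial adhesion genes rose. Cdh5, which encodes VE-cadherin of the adherens junction (chr8:104101625-104144511, plus strand), had 11.0, 11.2 and 11.7 CPM in sham mice and 19.9, 18.7 and 14.8 CPM in TBI mice. Pecam1, which encodes the adhesion molecule CD31 (chr11:106654217-106750628, minus strand), had 10.4, 9.94 and 12.5 CPM in sham and 20.2, 23.8 and 17.0 CPM in TBI mice. Neither gene overlapped between groups, and TBI mouse 3 was again the lowest of its group in both. The log2 fold change was 0.66 (SE 0.13, edgeR adjusted p = 0.00612) for Cdh5 and 0.90 (SE 0.149, edgeR adjusted p = 0.0026) for Pecam1. Without sham mice 2 and 3 the changes were 0.67 and 0.94, with edgeR adjusted p of 0.133 and 0.0663. Across the 10 genes TBI mouse 3 was the lowest TBI mouse for 7, and sham mouse 3 the highest sham mouse for 7.

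The transporters split. Mfsd2a carries lysophosphatidylcholine with omega-3 fatty acids into the brain and is known to hold down vesicle transport in endothelial cells (chr4:122946850-122961188, minus strand). It had 21.3, 27.4 and 23.4 CPM in sham mice and 11.7, 17.2 and 18.1 CPM in TBI mice. Every TBI mouse was below every sham mouse, with a log2 fold change of -0.62 (SE 0.171, 95% interval -1.0 to -0.23, edgeR adjusted p = 0.0263). The call was lost without sham mouse 2 (edgeR adjusted p = 0.0796), without sham mouse 3 (0.0576), and without both (log2 fold change -0.47, edgeR adjusted p = 0.311).

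Abcb1a encodes P-glycoprotein, the main drug efflux pump of the barrier (chr5:8660077-8748575, plus strand). Sham mice had 9.26, 10.7 and 15.6 CPM, and TBI mice 20.0, 23.2 and 14.95 CPM. Here TBI mouse 3 fell below sham mouse 3, so the groups overlapped although the gene passed (log2 fold change 0.71, SE 0.218, edgeR adjusted p = 0.0395). Leaving out sham mouse 1 or 2 or TBI mouse 1 or 2 took it past the threshold (edgeR adjusted p 0.083 to 0.142). Its close paralogue Abcb1b had 161, 96 and 174 counts in sham and 301, 289 and 298 counts in TBI mice (log2 fold change 1.03, edgeR adjusted p = 0.0117). The counting of reads that fit both paralogues is not stated, so the share of each is uncertain.

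Slc2a1 encodes GLUT1, the glucose transporter of brain endothelium, also made by astrocytes (chr4:119108711-119137983, plus strand). It had 52.3, 63.9 and 66.5 CPM in sham mice and 65.3, 93.75 and 70.2 CPM in TBI mice. TBI mouse 2 stood alone and the other TBI mice were within reach of the sham mice. The log2 fold change of 0.33 (95% interval -0.00139 to 0.657) did not pass (edgeR adjusted p = 0.128). Slco1a4, an organic anion transporter of the barrier (chr6:141805440-141856199, minus strand), had 17.9, 18.4 and 26.8 CPM in sham and 26.1, 33.5 and 19.6 CPM in TBI mice. Its groups overlapped, and its log2 fold change of 0.33 (95% interval -0.154 to 0.811) had an edgeR adjusted p of 0.292. Its paralogue Slco1a5, which the choroid plexus also expresses, had 2 to 15 counts in sham and 22 to 60 in TBI mice, and Slco1a6 had at most 4.

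Plvap encodes the diaphragm protein of fenestrated vessels and vesicles, which mature barrier endothelium has in small amount and choroid plexus capillaries in plenty (chr8:71497765-71511752, minus strand). Sham mice had 7.37, 6.51 and 7.45 CPM and TBI mice 6.69, 6.10 and 7.57 CPM. The groups covered the same range. The log2 fold change was -0.07 (95% interval -0.406 to 0.27, edgeR adjusted p = 0.778). The choroid plexus sums of sham mice 1, 2 and 3 were 1110, 23.6 and 61.2 CPM. With the choroid plexus level as a covariate the Plvap change was -0.14 (edgeR adjusted p = 0.735), and without sham mice 2 and 3 it was -0.15. How much of the Plvap RNA came from that tissue was not tested. Gtpbp3, a gene on the other strand that overlaps Plvap, had 847 to 1094 counts per library in 2018 against 297 to 354 for Plvap, and the strand setting of the counting is not given in the sources used here, so reads of the pair may not be told apart.

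**Figure D2:**
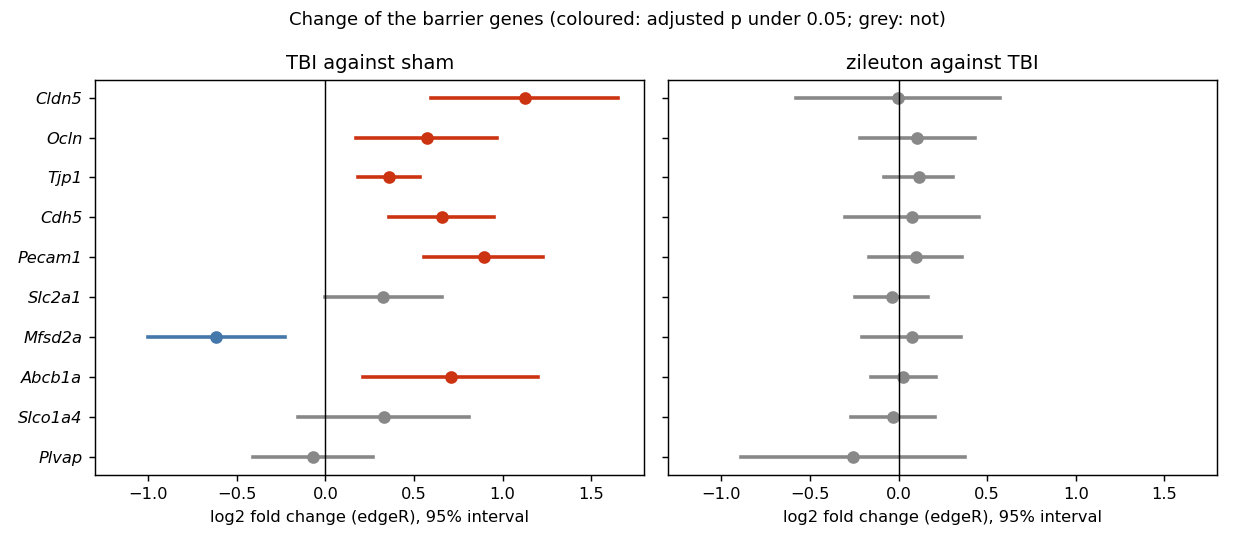
Log2 fold change and 95% interval of each barrier gene by edgeR, for TBI against sham at the left and zileuton against TBI at the right, on the same axis. At the left 6 genes are red (higher) and Mfsd2a blue (lower), and at the right all 10 intervals cross 0.

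In whole tissue more endothelial cells and more RNA per cell cannot be told apart, so each gene was also set against other endothelial genes of its own library. The list of 22 endothelial genes that are not among the 10, such as Flt1, Tek and Emcn, summed to 202, 203.3 and 256.3 CPM in sham and 309.3, 375.4 and 296.1 CPM in TBI mice, with no overlap. Of the 22, 9 rose and 0 fell by edgeR, with a median log2 fold change of 0.51. The mural list of pericyte and smooth muscle genes moved alike, from 184.5 to 210.3 CPM in sham to 278.5 to 298.3 CPM in TBI mice.

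Relative to that endothelial sum Mfsd2a was lower after TBI. It amounted to 10.5%, 13.5% and 9.12% of the sum in sham mice and to 3.79%, 4.58% and 6.11% in TBI mice, a difference of -1.20 in mean log2 ratio. Plvap went from 2.91% to 3.65% in sham to 1.62% to 2.56% in TBI mice (log2 difference -0.64). Slc2a1 went from 25.9% to 31.4% to 21.1% to 25.0% (-0.25). All 3 had no overlap between groups, but 52.8% of all genes were lower in this sense, since the endothelial sum itself rose.

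Pecam1 was the only one of the 10 above without overlap, with 4.88% to 5.13% of the sum in sham and 5.76% to 6.53% in TBI mice (log2 difference 0.32), a position that 7.33% of all genes shared. Cldn5, whose absolute rise was the largest, made up 4.14% to 5.08% of the sum in sham mice. In TBI mice 1, 2 and 3 it made up 7.97%, 7.44% and 5.00%, so TBI mouse 3 overlapped sham mouse 2. Ocln, Tjp1, Cdh5, Abcb1a and Slco1a4 overlapped between groups, with log2 differences of -0.25 to 0.15. Every non-overlapping ratio had the smallest two-sided p that an exact permutation test allows for 3 against 3 mice, 0.1, so none could pass 0.05.

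**Figure D3:**
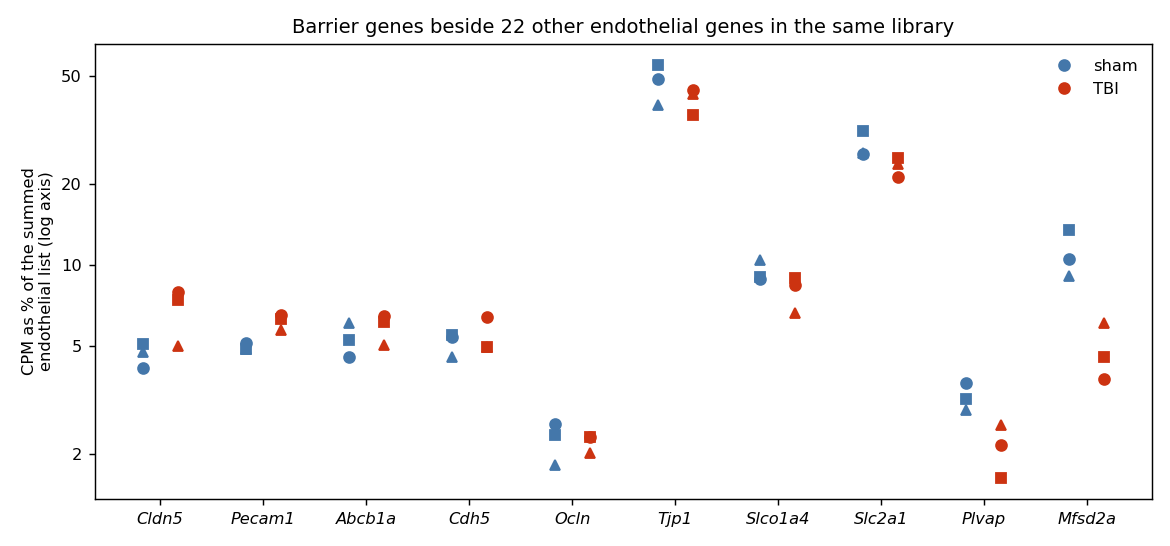
Each barrier gene as a percent of the summed CPM of 22 other endothelial genes in the same library (log axis), per mouse of 2018, ordered by the difference between TBI (red) and sham (blue). Mfsd2a at the right shows the widest separation, 9.12% to 13.5% in sham against 3.79% to 6.11% in TBI mice.

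Other genes of the vessel wall, in lists that exclude the 10, were described beside them. Their counts stand beside the 16.8% higher and 11.2% lower of all genes given above. Of 20 further junction genes 6 rose and 3 fell by edgeR (median log2 fold change 0.41), the falls at a share near that of all genes. F11r, which encodes the junction adhesion molecule JAM-A, rose from 7.17 to 21.6 mean CPM (log2 fold change 1.59, edgeR adjusted p = 3.33e-05). Cgnl1, the junction protein paracingulin, rose by 0.90, and Nectin2, an adherens junction receptor, by 0.77. The genes that fell were Afdn (-0.38), Magi1 (-0.42) and Cldn12 (-0.25), named here after their values were seen. They encode the scaffolds afadin and MAGI-1 and the claudin-12 protein.

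Of 20 further transporter genes 10 rose and 2 fell (median 0.45). Slc40a1, the iron exporter ferroportin, rose from 5.43 to 19.0 mean CPM (log2 fold change 1.81, edgeR adjusted p = 0.000137), Slco2b1, an organic anion transporter that microglia also express, from 12.2 to 39.9 mean CPM (1.71), and Slc38a5, a glutamine transporter, from 1.27 to 4.05 mean CPM (1.67). The 2 that fell, named after their values were seen, were Tfrc, the transferrin receptor (150 to 84.9 mean CPM, -0.82), and Slc7a1, the carrier of cationic amino acids (52.3 to 39.8 mean CPM, -0.39).

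Genes of caveolae and vesicles rose in 7 of 9 cases with 0 falls (median 0.70). Ehd4, a membrane trafficking ATPase, went from 18.5 to 46.3 mean CPM (log2 fold change 1.33). Cavin1 and Cav1, the coat and core proteins of caveolae, rose by 0.83 and 0.81. Of 16 genes of activated or sprouting endothelium 10 rose (median 0.79), led by the leukocyte adhesion gene Icam1 (1.12 to 12.3 mean CPM, log2 fold change 3.45), the P-selectin gene Selp, barely detected in sham mice (0.0432 to 0.453 mean CPM), and Angpt2 (0.9 to 2.63 mean CPM, 1.54), which encodes a Tie2 ligand of remodelling vessels.

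Wnt pathway genes of the barrier rose in 6 of 16 cases with 0 falls (median 0.45). Lrp5, a Wnt co-receptor, rose by 1.24, Tnfrsf19 by 0.87 and Apcdd1 by 0.83 on the log2 scale. Mural genes rose in 7 of 15 cases, with Anpep (3.55 to 10.4 mean CPM, 1.55) ahead of Cnn1 (1.53) and Acta2 (0.79). Among 10 genes of the basement membrane 6 rose, with Nid1 (11.5 to 27.9 mean CPM, 1.28), Lamb2 (0.89) and Col4a1 (0.65) leading. Every list named here had a median above the 0.02 of all genes.

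Other cell types moved in the same libraries. Of 8 tested genes of leukocytes and microglia all 8 rose, with a list sum of 118.7 to 140.8 CPM in sham and 527.5 to 748 CPM in TBI mice, and S100a8, Ptprc and Cd68 led at log2 fold changes of 4.92, 3.79 and 3.62. Leukocytes also carry Pecam1 and F11r, and the part of these cells in their rise was not tested. Nor was the part of leukocytes and microglia in other genes of the vessel lists, such as Icam1, Slc40a1 and Anpep. Neuronal genes fell in 4 of 8 cases, with Snap25 (-0.63), Syt1 (-0.59) and Rbfox3 (-0.56) changed most. Astrocyte genes rose in 6 of 8, with Gfap (3.72), Aqp4 (1.70) and Gja1 (1.03) ahead. The part of these shifts in Tjp1 and Slc2a1, which astrocytes share, was not tested either. Nor was the part of the neuronal fall in the vessel list genes that fell, Tfrc, Slc7a1, Afdn, Magi1 and Cldn12. Without sham mice 2 and 3, which leaves a single sham mouse, the lists had fewer calls, as had all genes. The medians of the endothelial, junction, transporter, caveolar and activation lists were then 0.64, 0.22, 0.39, 0.72 and 0.70. With the choroid plexus level as a covariate, 2 of 22, 4 of 20, 4 of 20, 5 of 9 and 3 of 16 of their genes were called higher. That fit called 2297 of all 19536 genes, 1596 of them higher. None of the 3 junction falls was called with that covariate, whereas 2 transporter genes were called lower. Without sham mice 2 and 3 the medians of Wnt, mural and basement membrane genes were 0.45, 0.53 and 0.45. Those of leukocyte, astrocyte and neuronal genes were 2.855, 0.796 and -0.488.

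**Figure D4:**
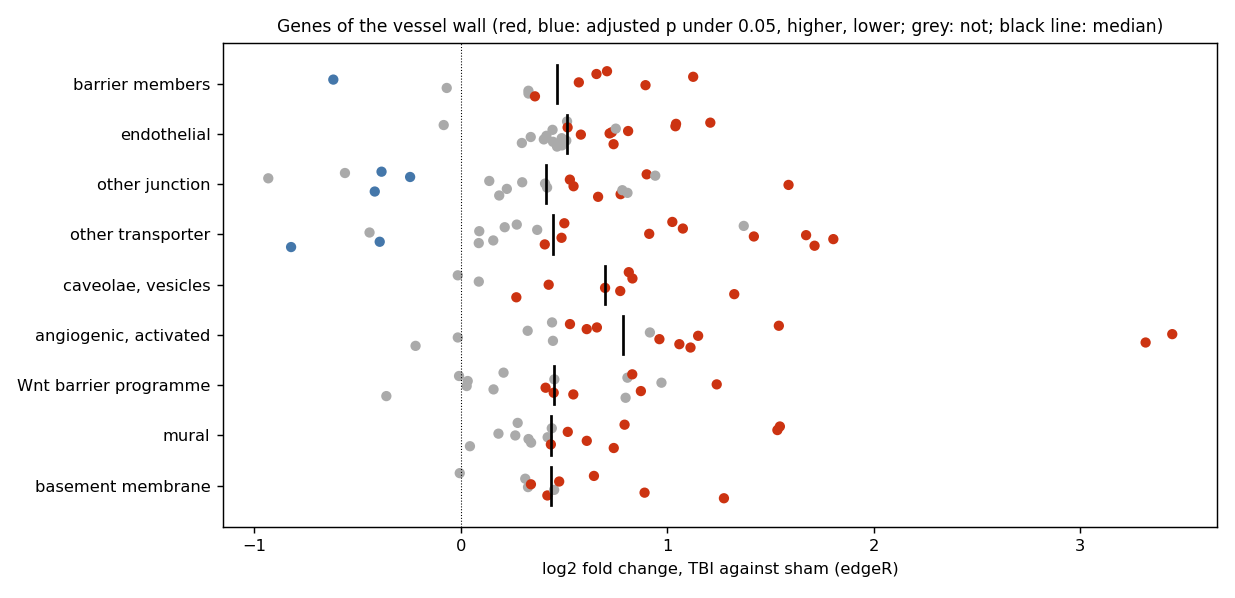
Log2 fold change of TBI against sham for the 10 barrier genes and for 8 lists of vessel genes, 1 point per gene, red or blue where the edgeR adjusted p is under 0.05 and grey otherwise, with the list's median as a black line. All 9 medians lie between 0.41 and 0.79, and Mfsd2a is the only blue point among the barrier genes.

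How the 10 genes varied from mouse to mouse within groups was described over all 12 libraries, as deviations of log2 CPM from each group's mean. These libraries share depth and tissue makeup, so the correlations are a description. Among the 45 pairs Pearson's r ran from -0.42 to 0.94 with a median of 0.31, and 13 pairs were above 0.5. Abcb1a (r = 0.90), Pecam1 (0.87) and Slco1a4 (0.84) followed the endothelial sum most closely. Mfsd2a (0.17), Plvap (0.05) and Tjp1 (-0.08) hardly followed it or not at all. A ratio to that sum need not correct such genes for endothelial content. Among 16516 genes those most like Cldn5 were Clec14a (0.95), Ushbp1 (0.94), Itga1 (0.94), Cdh5 (0.94) and Eng (0.94), of which all but Itga1 are on the lists of endothelial or barrier genes. Those most like Plvap were Coa6 (0.98), Mrpl58, Mrpl37, Ppp1r35 and Plekhj1 (each 0.96), none of them on an endothelial list.

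The second comparison asked what zileuton does to these genes in injured mice. None of the 10 passed the test, and none came near. By edgeR 0 of 10 had an adjusted p under 0.05, as had 0 of all 17363 genes. At an unadjusted p under 0.05 there were 0 of the 10, beside 6.83% of all genes, and by DESeq2 0 of the 10, beside 0.141%. For every one of the 10 the zileuton and TBI mice overlapped, whereas 13.6% of all genes did not overlap. The edgeR adjusted p of the 10 ran from 0.763 to 0.999, and their median log2 fold change was 0.05.

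Cldn5 had 31.6, 24.7 and 40.4 CPM in TBI mice A, B and C and 43.7, 30.0 and 22.7 CPM in zileuton mice A, B and C. The highest and the lowest mouse were both in the zileuton group. The log2 fold change was -0.004 with a 95% interval of -0.579 to 0.571 (edgeR adjusted p = 0.999). Mfsd2a, which had fallen with injury in 2018, had 16.8, 17.1 and 18.4 CPM in TBI and 20.5, 19.0 and 15.55 CPM in zileuton mice. Zileuton mice lay on both sides of the TBI mice (log2 fold change 0.08, 95% interval -0.204 to 0.355).

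Plvap had the change farthest from 0 and the widest interval. TBI mice had 11.2, 7.46 and 7.81 CPM and zileuton mice 9.67, 7.89 and 4.601 CPM, a log2 fold change of -0.25 (95% interval -0.887 to 0.378, edgeR adjusted p = 0.835). Zileuton mouse C gave the lowest value, with 132 counts. That mouse and TBI mouse A were the libraries low in choroid plexus RNA, and without them the change was 0.20. TBI mouse A had the highest Plvap of all 6.

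The abundant transporters were measured most tightly. Slc2a1 had 125.5, 151 and 153.5 CPM in TBI mice and 137, 139.5 and 142 CPM in zileuton mice, all within the TBI range (log2 fold change -0.04, 95% interval -0.244 to 0.166). Abcb1a had 42.4, 42.4 and 48.2 CPM in TBI mice and 44.96, 44.2 and 46.2 CPM in zileuton mice, with a 95% interval of -0.155 to 0.209 around 0.03. Slco1a4 had 38.3, 39.3 and 44.1 CPM against 35.4, 39.3 and 44.3 CPM (-0.03, 95% interval -0.27 to 0.206). These 3 intervals, with that of Tjp1, were the narrowest of the 10.

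Of the other junction and adhesion genes, Tjp1 had 118.1 to 135.2 CPM in TBI and 132.3 to 150.2 CPM in zileuton mice (log2 fold change 0.11, 95% interval -0.0794 to 0.307), the smallest adjusted p of the 10. Ocln had 8.13 to 10.9 against 9.24 to 10.7 CPM (0.11), Cdh5 21.2 to 28.35 against 20.8 to 30.9 CPM (0.08) and Pecam1 24.4 to 30.2 against 26.5 to 32.4 CPM (0.10). Zileuton mouse A was the highest of its group for 6 of the 10 genes and zileuton mouse C the lowest for 6. Relative to the endothelial sum, which was 512.4 to 543.2 CPM in TBI and 540.2 to 573 CPM in zileuton mice, all 10 genes overlapped between the groups, as all but 1.70% (higher) and 14.8% (lower) of all genes did.

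**Figure D5:**
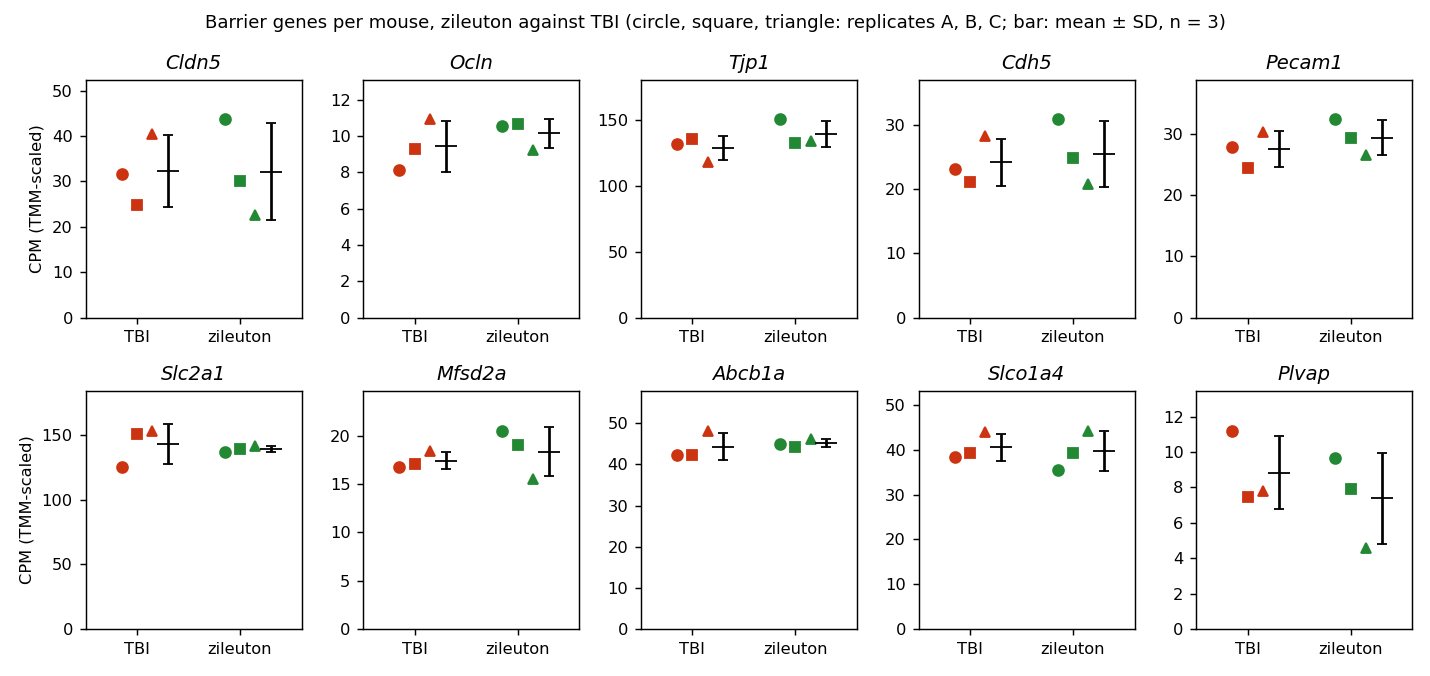
CPM of the 10 barrier genes in each mouse of 2022, with TBI in red and zileuton in green, the mean and SD at the right of each group, and every axis starting at 0. In all 10 panels the groups overlap, and Cldn5 and Plvap spread the most within the zileuton group.

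In none of the 17 lists did edgeR call a gene with zileuton. The 2 genes with the smallest p were named for each list. They were Flt1, a VEGF receptor (55.1 to 68.4 mean CPM, log2 fold change 0.31), and Tek, the angiopoietin receptor (17.8 to 21.7 mean CPM, 0.28), among endothelial genes, and Slc6a6, the taurine transporter (0.32), and Slc7a1 (0.27) among transporters. Pard3, a polarity protein of junctions (0.35), and Ctnnd1 (0.20) were those of the junction list, and Cav2 (-0.34) and Ehd4 (-0.21) those of the caveolar list. The Wnt co-receptor Lrp6 (0.27) and Axin2 (0.20), the mural genes Notch3 (0.21) and Pdgfrb (0.18), the basement membrane genes Lama5 (0.33) and Agrn (0.10), and Adm (-0.49) and Sele (1.202) of activated endothelium completed the vessel lists. The edgeR adjusted p of all these genes was 0.713 to 0.791. Red blood cell genes, a sign of how much blood a sample held, were lower in the zileuton mice (190.9 to 206.2 CPM) than in the TBI mice (216.2 to 342.3 CPM), and the part of this in the vessel genes was not tested.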

How the data were processed

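For 3 sham and 3 TBI mice (2018) the authors deposited raw read counts per gene and FPKM made from them. For 3 TBI and 3 zileuton mice (2022) the authors deposited estimated counts, 32.2% of which were not whole, and TPM, per the file headers. The submitters' processing notes name HISAT2, featureCounts of Subread, DESeq2 and GRCm39 without saying for which batch, the program behind the estimated counts is not given in the sources used here, and neither is strand. Positions come from GENCODE M21 on GRCm38 and promoters from RefSeq on GRCm38.p6.

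Counts (estimated counts rounded) were tested per batch with edgeR 4.0.16 in R 4.3.3 (TMM, filterByExpr, quasi-likelihood test, Benjamini-Hochberg over 19536 or 17363 genes, threshold 0.05). The plan had assumed raw counts in both batches. CPM used TMM-scaled totals. Ratios to the endothelial sum were tested with a two-sided exact permutation test (scipy 1.17.1). On simulated counts with 100 genes changed 2-fold and 100 changed 4-fold, edgeR called 75% and 93% in the sham and TBI design and 82% and 99% in the zileuton design, with 5.62% and 9.5% of calls false. The changed genes were a small part of the 19165 and 17121 tested, went up and down equally and left out the lowest expressed. In the data 28.0% of genes were called with TBI and 0 with zileuton, so these rates are not the power of the data. Nothing says whether the mice of a group were operated on and their RNA extracted together, so p-values measure only the spread between these mice.

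The genes, the 17 lists and the tests were chosen with earlier results of these data known. Named were all 10 genes, the 3 largest called changes of each list (without a call, the 2 smallest p), the 5 genes most like Cldn5 and Plvap, the paralogues and Gfap and Cd68. Alternatives were DESeq2 1.42.0 and its size factors, library totals, other filters, a robust fit, limma 3.58.1 on log2(value + 1) and log2(value + 0.1), an equal-variance test on FPKM or TPM, removal of a length trend, a replicate block, other ratio denominators and leaving out each mouse. The choroid plexus alternatives were added after seeing the data. All columns with values were used.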

Additional observations from a re-analysis of the deposited data

How the results depend on the processing

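With TBI, 7 of the 10 genes were called, and no called gene changed direction under any setting. The count was 3 with limma on log2(value + 1) without a filter, 1 (Tjp1) with the equal-variance test on FPKM, 1 (Tjp1) with the choroid plexus level as a covariate and 0 without the libraries low in choroid plexus RNA, the last 2 settings chosen after seeing the data. Of all genes, the unfiltered limma fit called 3713 of 33230, the equal-variance test 2625 of 15873 and the covariate fit 2297 of 19536. Leaving out 1 mouse gave 4 to 7, beside 3848 to 4956 of the 20083 to 20256 genes tested. Cldn5 had log2 fold changes of 1.37 (edgeR adjusted p = 0.0544) with the covariate and 1.18 (adjusted p = 0.121) with the equal-variance test. The replicate block gave 5, without Ocln (edgeR adjusted p = 0.0724) and Abcb1a (0.0837), beside 4337 of all 19536 genes. But the numbers were not seen to pair the mice, as the deviations of same-numbered mice had r of -0.09 to -0.02 in 2018 and -0.28 to 0.06 in 2022. With 3 mice a group, which also differed in choroid plexus RNA, these values cannot exclude a pairing. Genes apart from sham relative to the endothelial sum were 4 (1 higher, 3 lower), and 4 to 6 with a mouse left out. Relative to the mural sum they were 3 (1 higher, 2 lower). Relative to the mean log2 of the endothelial list they were 5 (2 higher, 3 lower). The share of all genes is given above only for the endothelial sum with every mouse kept. It was not computed for the other counts, and smaller groups are apart more easily.

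With zileuton the count was 0 under every setting, the replicate block included. Genes apart relative to the endothelial sum were 0, beside 1.70% higher and 14.8% lower of all genes. With a mouse left out they were 0 to 3. The share of all genes was not computed for these smaller groups, which are apart more easily. Estimates near 0 changed sign in these cases. Cldn5 was 0.000519 with at least 10 counts, 0.0336 with limma on log2(value + 1) with or without a filter, 0.0337 with log2(value + 0.1), 0.0678 with the equal-variance test, 0.0741 with the length trend removed, 0.0523 with that and the replicate block, 0.18 without the low choroid plexus libraries and -0.29 to 0.20 with a mouse left out. In the same order of limma and equal-variance tests Slc2a1 was 0.0204, 0.0207 and 0.0166, and -0.13 to 0.0102 with a mouse left out. Slco1a4 was 0.0304, 0.0316 and 0.034, and -0.11 to 0.0442 with a mouse left out. Abcb1a was -0.0376 with the length trend removed, -0.0334 with the replicate block as well, -0.0211 without the low choroid plexus libraries and -0.00437 to 0.0884 with a mouse left out. Tjp1 was -0.00256 with the replicate block and length trend, Cdh5 -0.084 to 0.21 and Mfsd2a -0.0112 to 0.19 with a mouse left out, and Plvap 0.20 without the low choroid plexus libraries. With TBI Plvap was -0.15 to 0.00349 with a mouse left out. The causes were not tested.

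With 3 mice a group, changes under 2-fold, such as that of Ocln, can be near the limit of what these data can show. The SE with TBI was 0.175 for Ocln and 0.149 for Plvap, and 0.232 for Cldn5, which had more counts. The 8 and 9 day labels could not be tied to columns, so no fit without them was made.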

Other observations

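Cells that line or fill the vessels and meninges moved in these libraries as well. Of 12 fibroblast and meningeal genes 5 rose with TBI by edgeR and 0 fell (median log2 fold change 0.76), led by the collagens Col1a1 (24.1 to 107 mean CPM, 2.15) and Col1a2 (32.7 to 129 mean CPM, 1.98) and by lumican, Lum (6.28 to 25.0 mean CPM, 1.99). Their summed level was 217.4 to 228.6 CPM in sham and spread from 279.6 to 876.6 CPM among TBI mice. With the choroid plexus level as a covariate the count was 0 of 12, and without sham mice 2 and 3 the median was 0.94. Pdpn, podoplanin, which lymphatic endothelium shares with reactive astrocytes and fibroblasts, was the only one of 4 lymphatic genes called (9.94 to 38.4 mean CPM, 1.95). Of 5 platelet genes tested, Pf4, which macrophages also express, rose (1.85 to 13.9 mean CPM, 2.91) and Gp9 fell (0.645 to 0.175 mean CPM, -1.85).

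Red blood cell genes fell with TBI in 5 of 7 cases, and their sum was 154.5 to 248.7 CPM in sham and 89.4 to 141.3 CPM in TBI mice. The largest falls were those of the embryonic globins Hba-x (0.702 mean CPM in sham and 0 in TBI mice, edgeR adjusted p = 0.00269) and Hbb-y (2.8 and 0.0546 mean CPM, edgeR adjusted p = 0.000505). Hba-a1, an adult alpha globin, went from 68.9 to 37.5 mean CPM (log2 fold change -0.88, edgeR adjusted p = 0.0126). Of 12 choroid plexus genes 2 were called higher with TBI, Slco1a5 and Aqp1 (5.77 to 12.9 mean CPM, 1.17), with 1 of 3 sham mice at the level of the TBI mice in the list's sum. Oligodendrocyte genes rose in 4 of 6 cases, with Mag, Cnp and Mbp at 0.78, 0.74 and 0.68. Without sham mice 2 and 3 the medians were 0.629 for oligodendrocyte, 0.415 for choroid plexus, 0.154 for platelet, 0.884 for lymphatic and -0.859 for red blood cell genes. With the choroid plexus level as a covariate the calls were 0 of 6 oligodendrocyte, 0 of 12 choroid plexus, 0 of 5 platelet and 1 of 4 lymphatic genes. Of 7 red blood cell genes 2 were then called, both lower. That fit called 2297 of all 19536 genes. With zileuton 0 genes of these lists passed by edgeR. At an unadjusted p under 0.05, 4 of 5 red blood cell genes were lower, beside 6.83% of all genes in either direction. Hba-a1 went from 55.9 to 37.9 mean CPM (-0.56, edgeR adjusted p = 0.713) and Hbb-bs from 99.9 to 69.8 mean CPM (-0.52). Of the fibroblast genes Ogn was 7.9 in TBI and 4.99 mean CPM in zileuton mice (-0.66) and Pdgfra changed by 0.22, and of the leukocyte genes Aif1 was 17.5 and 11.6 mean CPM (-0.59) and Ptprc changed by -0.26. The other genes with the smallest p of their lists were Clic6 (0.86) and Prlr (0.90) of the choroid plexus, Prox1 (0.41) and Lyve1 (-0.59), Gp9 (0.96) and Gp1ba (-0.73) of platelets, Slc1a2 (0.29) and Aldh1l1 (-0.12) of astrocytes, Slc17a7 (-0.18) and Map2 (0.16) of neurons, and Mobp (0.37) and Mbp (0.38) of oligodendrocytes, with edgeR adjusted p of 0.713 to 0.846.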
